A study of Homo sapiens with 4 samples.

Results

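The lamin B1 profile of VCaP cells was described on its own along the autosomes, as the log2 ratio of 1 lamin B1 ChIP library over 1 input library of the same line. VCaP is an established line from a bone metastasis of prostate cancer. It was grown as a monolayer to 90% confluence in a DMEM F12 and Ham medium with serum, given no drug or hormone that the labels name, fixed with formaldehyde and sheared by sonication. Chromatin was pulled down with a rabbit polyclonal antibody to lamin B1, and the input library of the same line is labelled as having no antibody. The members were all rows of the deposited VCaP table with a value on chromosomes 1 to 22, which were 67359 of the 143506 rows with a value in the whole series. A row is a stretch of 40 kb in 67199 cases and wider in the other 160. The series holds 4 libraries in 4 groups of 1, so no difference given here has a replicate check and none was tested. The spread between rows 3 apart, which share no averaged entry, had an SD of 0.22 log2 units, and it stands in for the error of a single row. Read numbers are unknown, since the table holds ratios only, and the ratios behave as a running mean of 3 rows. VCaP is 1 cell line, whose chromosomes are rearranged, and positions are those of the reference genome hg19.

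Lamin B1 is a filament protein of the nuclear lamina, the mesh that lines the inner face of the nuclear envelope. In most cell types studied, chromatin that touches the lamina is poor in genes, rich in A and T, replicated late and weakly transcribed, and it forms long domains. In many human cells the gene-poor chromosome 18 lies near the nuclear edge and the gene-rich chromosome 19 near the centre. No independent measure of lamina contact, such as DamID or imaging, was analysed here, so a high ratio is called enrichment and not contact.

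Promoters of 3 genes are shown as examples of the sequence beside genes in long high and low stretches. As background, LMNB2, the gene of lamin B2, lies in the longest stretch of high rows, on chromosome 19. UGT2B7, a gene of an enzyme that couples glucuronic acid to steroids including androgens, lies in one of the longest stretches of low rows, on chromosome 4. NLGN1, the gene of the synaptic adhesion protein neuroligin, lies in the longest low stretch of 40 kb rows, on chromosome 3. The 250 bases before their starts, from RefSeq on GRCh38.p14, are shown 5′ to 3′ on the strand of the gene, with each CG pair in capitals.
LMNB2: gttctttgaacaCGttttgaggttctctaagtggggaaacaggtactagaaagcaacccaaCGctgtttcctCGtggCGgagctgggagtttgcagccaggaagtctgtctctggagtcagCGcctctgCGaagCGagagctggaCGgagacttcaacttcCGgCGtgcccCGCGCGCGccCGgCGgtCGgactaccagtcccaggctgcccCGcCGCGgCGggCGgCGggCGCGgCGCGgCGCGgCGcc
UGT2B7: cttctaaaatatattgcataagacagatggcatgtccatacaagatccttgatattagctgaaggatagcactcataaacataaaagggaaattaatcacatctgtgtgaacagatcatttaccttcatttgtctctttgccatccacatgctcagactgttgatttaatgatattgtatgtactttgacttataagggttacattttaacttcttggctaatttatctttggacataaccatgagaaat
NLGN1: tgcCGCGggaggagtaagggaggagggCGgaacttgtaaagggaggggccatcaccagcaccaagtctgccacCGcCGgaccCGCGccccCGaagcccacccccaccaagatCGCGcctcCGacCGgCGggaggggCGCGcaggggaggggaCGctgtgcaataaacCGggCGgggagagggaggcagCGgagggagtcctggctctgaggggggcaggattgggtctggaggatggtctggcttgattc
LMNB2 held 30 CG pairs and 66.4% G and C, UGT2B7 held 0 pairs and 32.8%, and NLGN1 held 19 pairs and 69.2%. Of 15101 such autosomal stretches of protein-coding genes, read on 21 chromosomes, 96.9% held a CG pair, 47.0% held at least 19 and 16.4% held at least 30. The letters are shown as a description, and a row of 40 kb is far longer than any of them. NLGN1 and LMNB2 both had more CG pairs than the median promoter, which held 17, although one lies in a high and the other in a low stretch.

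Over all autosomes the log2 ratio lay slightly above 0. The median row had a log2 enrichment of 0.19, a ratio of 1.14, with an interquartile range of -0.11 to 0.50. The lowest row had -1.88 and the highest 2.27, and 66.5% of rows were over 0. High rows, over 0.35 (a ratio of 1.27), numbered 24424, or 36.3% of those measured. Low rows, under -0.25 (a ratio of 0.841), numbered 10855, or 16.1%. The remaining 32080 rows, 47.6%, lay between. Neither threshold fell in a gap of the distribution, as 8.09% of rows lay within 0.05 of the upper one and 5.27% within 0.05 of the lower one. The rows nearest to the thresholds had 0.35003 and 0.34994 on either side of the upper and -0.24999 and -0.25002 on either side of the lower one. How the authors scaled ChIP to input is not given in the sources used here, so the zero point is theirs. With the rows centred on their median, 22.5% were over 0.35 and 28.6% under -0.25, and low rows then outnumbered high ones.

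Enrichment differed between chromosomes, and 5 of them stood apart at the top. Chromosome 19 had the highest median, 0.71, followed by chromosome 22 with 0.67, chromosome 16 with 0.58, chromosome 17 with 0.49 and chromosome 20 with 0.44. All 5 lay above the upper threshold of 0.35. A gap followed, since chromosomes 11, 10 and 15 came next with 0.27, 0.26 and 0.26. Chromosomes 8, 1, 18, 21, 7, 9, 12, 14 and 2 had medians of 0.21, 0.21, 0.19, 0.18, 0.18, 0.16, 0.16, 0.15 and 0.12. The lowest were chromosome 5 with 0.11, chromosome 6 with 0.08, chromosome 3 with 0.08, chromosome 4 with 0.03 and chromosome 13 with 0.02. Many neighbours in this order differed by less than 0.02.

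The quartiles show how far whole chromosomes were displaced. On chromosome 19 the lower quartile was 0.49, level with the median of chromosome 17 and above the median of every autosome other than 16, 17 and 22. High rows made up 84.3% of chromosome 19, 82.7% of chromosome 22 and 71.9% of chromosome 16, against 18.3% of chromosome 13 and 20.3% of chromosome 4. Low rows made up 0.714% of chromosome 19 and 23.8% of chromosome 13. Even so, most of the spread lay inside arms: 10.2% of the variance of rows was between chromosomes, 12.1% between arms and 87.9% within arms.

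Gene density moved with these levels. Chromosome 19, which carries 25.8 protein-coding genes per Mb of covered sequence, had the highest density and the highest median. For the density, rows over 1 Mb wide were left out of the covered sequence, while the shares given for runs include them. Chromosome 13, with 3.51 genes per Mb, had the lowest of both. Over the 22 chromosomes the median enrichment and the density had a Spearman rho of 0.75 and a Pearson r of 0.84. All the points come from 1 pair of libraries and share their scaling, so these are descriptions with no p. Without chromosome 19, rho was 0.72 and r was 0.84, and leaving out each chromosome in turn gave rho between 0.72 and 0.81. The share of low rows went the opposite way, with rho of -0.73.

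Some chromosomes of similar length differed in both level and gene density. Chromosomes 22 and 21, the shortest autosomes at 51.3 and 48.1 Mb, had medians of 0.67 and 0.18 with 12.8 and 6.71 genes per Mb. Chromosomes 17 and 18, at 81.2 and 78.1 Mb, had medians of 0.49 and 0.19 with 14.9 and 3.60 genes per Mb. Chromosome 19 is shorter than chromosome 18, at 59.1 Mb, and its median was 0.52 higher. These pairs were picked with the values known. Length itself had a rho of -0.62 with the median, and the parts of length and density were not tested against each other. Ranks by median and by density differed in both directions. Chromosome 18 ranked 11 by median and 21 by density, chromosome 8 ranked 9 and 19 and chromosome 10 ranked 7 and 15. Chromosome 12 ranked 15 by median and 8 by density, and chromosomes 14 and 6 ranked 16 and 19 by median and 10 and 13 by density.

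Base composition was read from promoters, as no hg19 sequence was used. The median G and C share of the 250 bases before protein-coding genes was 66.8% on chromosome 22 and 66.4% on chromosome 16, but 62.8% on chromosome 19 and 63.2% on chromosome 13. Over 21 chromosomes it had a rho of 0.40 and an r of 0.56 with the median enrichment. It had a rho of 0.07 with gene density. The G and C share of whole rows was not measured, and its part in the pattern was not tested.

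**Figure D1:**
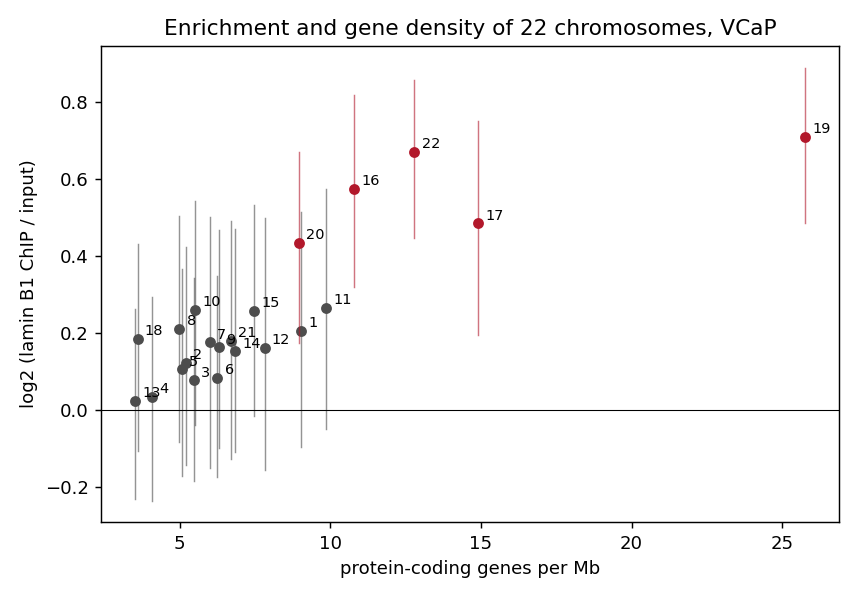
Median log2 enrichment of lamin B1 ChIP over input (y axis) against protein-coding genes per Mb of covered sequence (x axis) for the 22 autosomes of VCaP, with lines for the interquartile range of rows. Chromosomes 16, 17, 19, 20 and 22, in red, lie above 0.35, and chromosome 13 lies lowest at 0.02.

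The 39 arms with at least 50 rows gave a finer view. The highest medians were those of 19p, 16p, 22q, 19q and 17p, at 0.78, 0.70, 0.67, 0.65 and 0.57. The lowest were those of 4q, 3q, 13q, 6q and 5q, at -0.04, -7.7e-05, 0.02, 0.05 and 0.07. By the spread of nearby rows, an arm's mean has a noise SD of at most 0.020. That SD holds no error between libraries, so the precision of an arm is not known. The extremes lay further apart than the spread of a single row, 0.22, while many arms in the middle did not. Only 4q and 3q had medians under 0. With the running mean undone, that of 3q was 0.014 and that of 4q was -0.03. In 9 arms the median was over 0.35. Of those 9 arms, 8 lie on chromosomes 16, 17, 19, 20 and 22, and the other is 8p, at 0.39.

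The arms of 1 chromosome could differ. On the 17 chromosomes with both arms described, the p arm had the higher median on 11. The largest difference was on chromosome 4, where 4p had 0.24 and 4q had -0.04. On chromosome 8 the values were 0.39 for 8p and 0.16 for 8q, and on chromosome 16 they were 0.70 and 0.48. Chromosome 20 went the other way, with 0.31 on 20p and 0.55 on 20q. On the other chromosomes with 2 arms the difference was smaller than the spread of a single row, 0.22, and so was that of chromosome 16. High rows covered 13.8% of 4q and 85.7% of 19p. Low rows covered 28.8% of 4q and 0.488% of 19p.

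**Figure D2:**
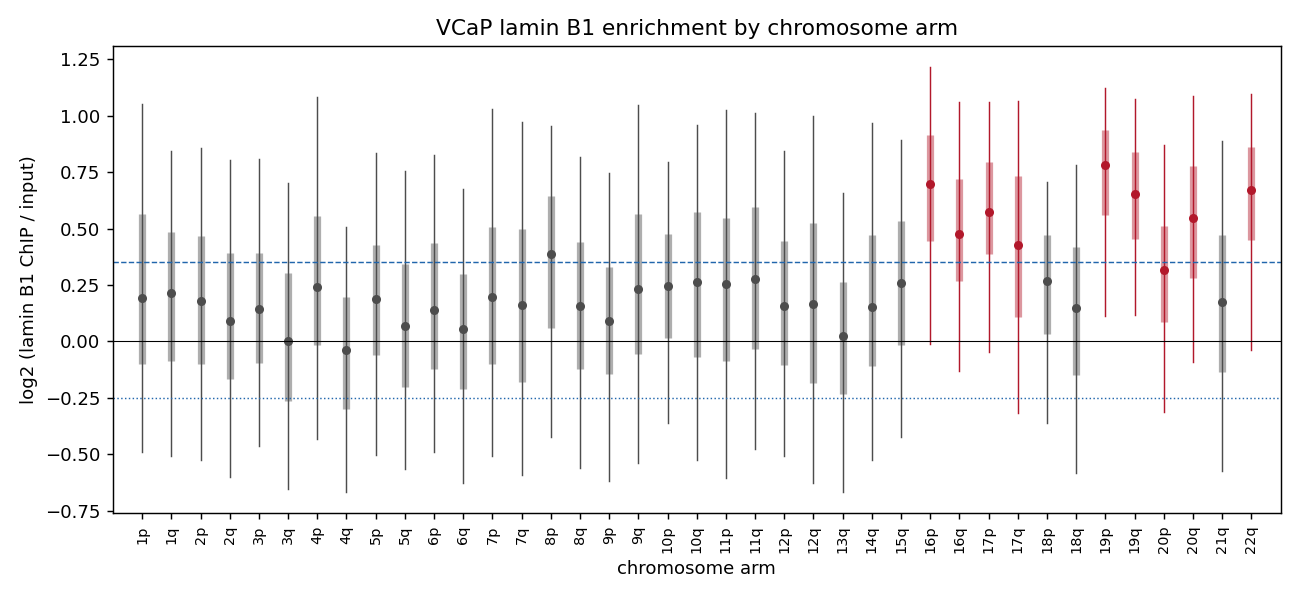
Log2 enrichment of lamin B1 ChIP over input (y axis) in the rows of 39 chromosome arms of VCaP (x axis). Points are medians, thick bars the interquartile range, thin lines the 5th to 95th percentile, red marks chromosomes 16, 17, 19, 20 and 22, and the dashed and dotted lines are 0.35 and -0.25; 19p is highest at 0.78 and 4q lowest at -0.04.

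**Figure D3:**
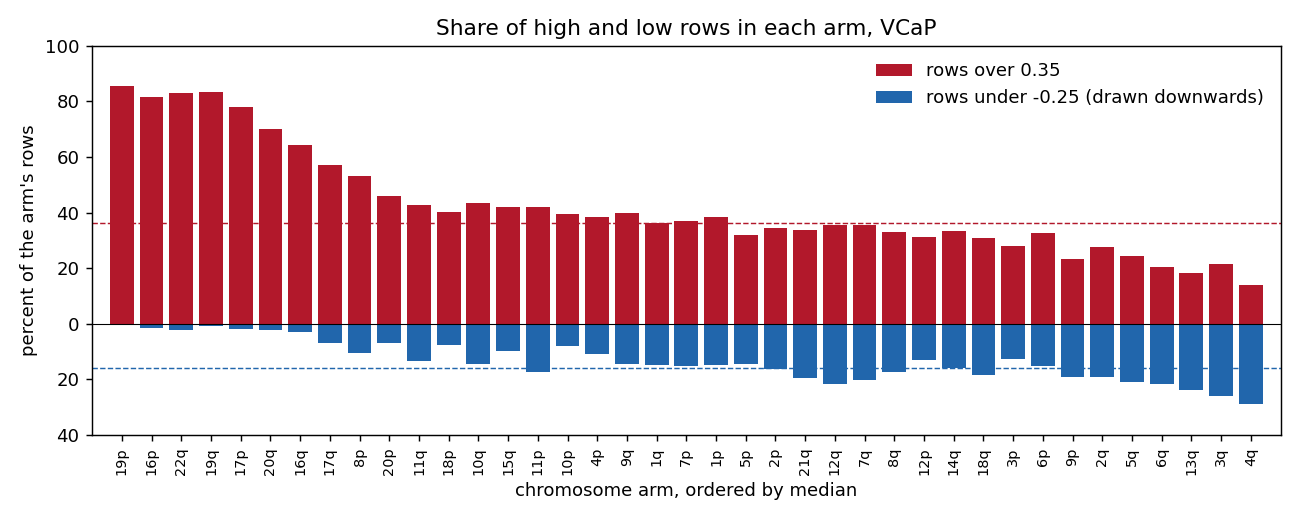
Percent of rows over 0.35 (upwards) and under -0.25 (downwards) in each arm, ordered by the arm's median, with dashed lines at the shares over all autosomes, 36.3% and 16.1%. High rows make up 85.7% of 19p and 13.8% of 4q, and low rows 0.488% and 28.8%.

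Adjacent high rows formed 3445 high runs with a total of 997.8 Mb, 35.3% of the covered sequence. Their median length was 160 kb, with an interquartile range of 80 to 320 kb. Most were short: 737 runs were a single row, and 164 reached 1 Mb. Those 164 held 30.8% of the high sequence, and 18 runs reached 3 Mb. Of the 164, 6 hold a row wider than 1 Mb, among them a run of 4.8 Mb on chromosome 7. With rows wider than 1 Mb left out, high runs totalled 982.4 Mb. The gap between a high run and the next was 200 kb in the median. The median of run means was 0.39 for single rows, 0.46 for 2 to 4 rows, 0.60 for 5 to 24 rows and 0.77 for at least 25 rows. Runs are built from a threshold on a running mean, so their number depends on both, and a single row over the threshold tends to lie just above it while a long run can climb further. The relation of length to level is therefore largely built in and is given as a description.

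Long high runs were found on all 22 autosomes, with a larger share on 5 chromosomes and near arm ends than the share of rows there. Chromosomes 16, 17, 19, 20 and 22 hold 11.4% of the rows and held 58 of the 164 runs of at least 1 Mb. These 5 have the highest medians in the same values. More long high runs and fewer long low runs there are therefore largely built in. Rows within 10 Mb of an arm end are 14.4% of all, and 64 of the 164 began or ended there. A row was placed by its middle and a run by either edge, so these shares are not alike. Of the 29 low runs of at least 1 Mb, 0 lay on those 5 chromosomes and 0 within 10 Mb of an arm end. Rows near arm ends are higher in the same values, so more long high and fewer long low runs there are also largely built in.

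The longest high run covered 9.2 Mb of 19p, from 280001 to 9480000, in 230 adjacent rows. Its mean was 0.87, with a noise SD of 0.026, and its rows ranged from 0.38 to 1.52. As background, this stretch carries LMNB2, STK11, a kinase and tumour suppressor, GNA11, a G protein subunit, and INSR, the insulin receptor. The second covered 7.28 Mb of 12q, from 126400001 to 133680000, with a mean of 0.97 and a noise SD of 0.029. It is known to carry RIMBP2, a scaffold protein of synapses, ULK1, a kinase that starts autophagy, and POLE, the catalytic subunit of DNA polymerase epsilon. Both means lay above 0.77, the median of all high runs of at least 25 rows. Given the built-in relation of length to level, this is a description only.

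The third covered 5 Mb of 1p, from 1880001 to 6880000, and had a mean of 1.06 with a noise SD of 0.035. Its known genes include TP73, a relative of p53, PRDM16, a regulator of brown fat, and CHD5, a chromatin remodeller. The next covered 4.92 Mb of 9q, from 135600001 to 140520000, with a mean of 0.99. It is known to carry NOTCH1, a cell surface receptor, TSC1, a brake on mTOR signalling, and COL5A1, a fibrillar collagen. All 4 of these runs began or ended within 2 Mb of an arm end. The fifth, on chromosome 7 from 55200001 to 60000000, had a mean of 0.93, but 1 of its 73 rows is wider than 1 Mb and spans part of the centromere. Such wide rows carry the running mean of their neighbours: undoing the mean left a median absolute value of 0.0070 in the 160 rows wider than 40 kb.

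Ranked by level, the high runs of at least 10 rows were led by short stretches. The highest mean, 1.13 with a noise SD of 0.11, was that of chromosome 15 from 77840001 to 78320000, where LINGO1, a membrane protein of neurons, is known to lie. Chromosome 7 from 62880001 to 63840000, beside the centromere and known for zinc finger genes, had a mean of 1.10. Chromosome 4 from 49120001 to 50000000, at the edge of the centromere, had 1.09. Its 13 rows span 0.88 Mb, so part of that sequence lies in rows wider than 40 kb. With the running mean undone, its mean was 1.07. The run on 1p came next with 1.06, and chromosome 7 from 72320001 to 72960000, in the Williams syndrome region with FZD9, a Wnt receptor, and BAZ1B, a chromatin remodelling subunit, had 1.05. The noise SDs of these means ranged from 0.035 to 0.11, so their order is not firm.

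There were 2566 low runs, with a total of 442.9 Mb, 15.6% of the covered sequence. The median length was 120 kb, with an interquartile range of 80 to 200 kb, and 628 were a single row. The 29 runs of at least 1 Mb held 10.7% of the low sequence. Of these 29, 1 is a stretch of 7.68 Mb on chromosome 9 made of rows wider than 1 Mb over the centromere. With rows wider than 1 Mb left out, low runs totalled 435.2 Mb. How high and low runs compare rests on the authors' zero point. At that zero point low runs were fewer than high runs and had the smaller total, but with the rows centred on their median there were 3524 low runs with 778.8 Mb and 2756 high runs with 618.2 Mb, both with a median length of 120 kb. A low run had its nearest high run 320 kb away in the median. High runs lay within 200 kb of 1082 low runs, and 591 low runs had none within 1 Mb.

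The longest low runs lay on chromosomes 9, 3, 11, 2 and 4. By the rule, the longest is on chromosome 9 from 47320001 to 55000000, but it is 2 rows wider than 1 Mb over the centromere, whose mean was 0.0038 once the running mean was undone. The next covered 2.52 Mb of 3q, from 173080001 to 175600000, with a mean of -0.77, a noise SD of 0.049 and rows from -1.60 to -0.30. As background, it carries NLGN1 and NAALADL2, both spread over very long introns. The run on 11p from 24280001 to 26440000 covered 2.16 Mb with a mean of -0.57, and LUZP2 is known to lie there. The run on 2q from 192800001 to 194720000 covered 1.92 Mb with a mean of -0.79. It begins at TMEFF2, a membrane protein gene active in prostate, and runs into a desert with few genes.

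The run on 4q from 69520001 to 71320000 covered 1.8 Mb with a mean of -0.59, and its rows ranged from -0.85 to -0.29. It is known for UGT2B7 and UGT2B4, which encode enzymes of steroid and bile acid glucuronidation, and for the milk protein genes CSN2 and CSN3. Compared with the runs on 3q and 2q its minimum was less deep, as those reached -1.60 and -1.31.

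The lowest means among low runs of at least 10 rows were on chromosomes 4, 13, 14 and 2. Chromosome 4 from 101960001 to 102360000, known for PPP3CA, the catalytic subunit of calcineurin, had -1.15 with a noise SD of 0.12 and held the lowest row of all autosomes, -1.88. Chromosome 13 from 71720001 to 72600000, where the transcription factor gene DACH1 lies, had -1.01. Chromosome 14 from 37720001 to 38440000 had -0.90 with a noise SD of 0.09, and its rows ranged from -1.40 to -0.37. That stretch is known for FOXA1, which encodes a pioneer factor that opens chromatin for the androgen receptor in prostate cells. Chromosome 4 from 95320001 to 96120000, with BMPR1B, a receptor of bone morphogenetic proteins, had -0.89. Chromosome 2 from 180280001 to 180720000 had -0.83. Each of these means has a noise SD of 0.083 to 0.12, so their order is not firm either.

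Genes named in these runs were picked after the values were seen and from knowledge of their position, not from an annotation of hg19. Of the 16 named in high runs, 14 had a promoter entry, and its G and C share ranged from 55.6% to 80.4% with a median of 74.6%. Of the 12 named in low runs, 10 had one, ranging from 30% to 72.8% with a median of 57%. The median over all 15101 autosomal entries was 62.4%. The 4 low-run genes with under 2 CG pairs were NAALADL2, UGT2B7, CSN2 and CSN3, while LUZP2 had 34, FOXA1 had 26 and BMPR1B had 24. So the low runs held promoters of both kinds.

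Enrichment was higher towards the outer ends of arms. In 37 of 38 arms longer than 20 Mb, the median of the last 5 Mb lay above the median of the rest of the arm. The median over arms was 0.67 at the ends and 0.17 in the rest. The difference within an arm was 0.42 in the median, with an interquartile range over arms of 0.24 to 0.60. In 29 arms the end was higher by more than the spread of a single row, 0.22. The ends reached a median over 0.35 in 34 arms, the rests in 8. An end holds at least 119 rows. The spread of nearby rows puts the noise SD of its mean at 0.036 or less, which holds no error between libraries.

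The largest differences were on 1p, 12q and 9q. On 1p the last 5 Mb had a median of 1.05 and the rest 0.17, a difference of 0.88. On 12q the values were 0.96 and 0.13, and on 9q they were 1.00 and 0.19. High rows made up 98.4% of the last 5 Mb of 12q. In gene order on GRCh38, the outermost named protein-coding genes of 12q are ANHX, ZNF268 and ZNF10, and those of 9q are CACNA1B, a calcium channel gene of neurons, EHMT1, a histone methyltransferase gene, and ARRDC1. The long high runs of 1p, 12q and 9q described above overlap these ends and reach beyond the last 5 Mb.

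Arms that were low overall also had high ends. On 13q the end had 0.58 and the rest 0.01, on 5q they had 0.67 and 0.05, and on 2q they had 0.74 and 0.07. On 21q the end had 0.70, and 93.6% of its rows were high, while the rest of the arm had 0.07. The end of 4q was lower, at 0.31, but the rest of that arm was under the authors' zero point, at -0.05. The ends of 2 high arms, 16p and 19q, were 0.09 and 0.10 above their rests. On 16p, whose outermost genes in the order on GRCh38 are POLR3K, a subunit of RNA polymerase III, SNRNP25 and RHBDF1, the end had 0.78 and the rest 0.69. Without chromosomes 16, 17, 19, 20 and 22, the end was higher in 28 arms and lower on 3p, with a median difference of 0.49, as computed after the data were seen.

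The exception was 3p. Its last 5 Mb had a median of -0.13 and the rest 0.16, so the end was 0.29 lower. High rows were 2.44% of that end and low rows 25.2%. The outermost named protein-coding genes there, in gene order on GRCh38, are CHL1, CNTN6 and CNTN4, which encode neural cell adhesion molecules and include very large genes. The end of 9p differed little, at 0.11 against 0.09. Its outermost genes in the same order are WASHC1, FOXD4 and ZNG1A.

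**Figure D4:**
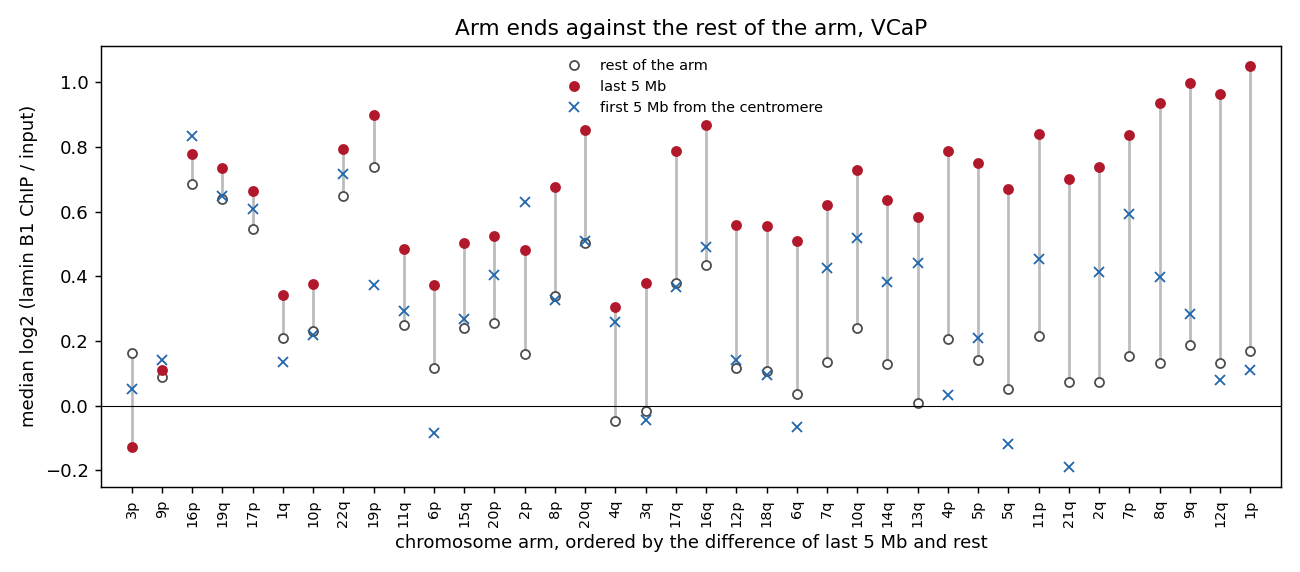
Median log2 enrichment in the last 5 Mb of each of 38 arms (filled points), in the rest of the arm (open points) and in the 5 Mb next to the centromere (crosses), ordered by the difference of end and rest. The end lies above the rest in 37 arms and below it on 3p, where it is -0.13.

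By distance, the enrichment was highest in the outer 5 Mb and lower step by step beyond. High rows were 72.3% of rows in the outermost 1 Mb, 81.2% from 1 to 2 Mb, 75.4% from 2 to 5 Mb and 59.99% from 5 to 10 Mb. They were 45.6% from 10 to 20 Mb, 35.1% from 20 to 40 Mb and 24.4% beyond 40 Mb. Low rows went from 3.58% in the outermost 1 Mb to 21.8% beyond 40 Mb. The median of arm medians was 0.72, 0.76, 0.65, 0.52, 0.30, 0.18 and 0.10 over the same 7 steps. Beyond 40 Mb only 28 arms are long enough, so the last step leaves out short arms. Measured against each arm's own median, the 7 steps were 0.32, 0.42, 0.37, 0.12, 0.01, -0.03 and -0.05.

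At the other end of the arm the picture was mixed. The 5 Mb next to the centromere were higher than the rest of the arm in 20 of 38 arms, with a median difference of 0.014. The range ran from -0.45 on 19p to 0.47 on 2p. On 19p the 5 Mb next to the centromere had 0.37 and the rest 0.82. On 21q these rows had -0.19. The first 1 Mb from the centromere stood higher, with 59.0% high rows. The telomeric difference exceeded the centromeric one in 34 of 38 arms.

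**Figure D5:**
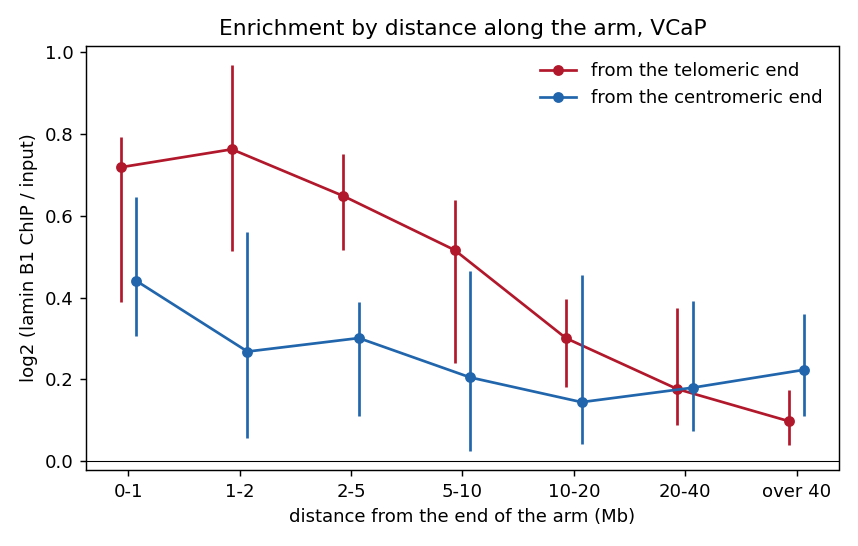
Log2 enrichment against distance from the telomeric end (red) and from the centromeric end (blue) of 38 arms over 20 Mb. Points are medians of arm medians and lines the interquartile range over arms; the telomeric profile goes from 0.72 in the outermost 1 Mb to 0.10 beyond 40 Mb.

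Rows resembled their neighbours over long distances. With each arm's mean removed, rows 120 kb apart, which share no averaged entry, had a Pearson r of 0.64. At 400 kb r was 0.42, at 1 Mb 0.33, at 5 Mb 0.15 and at 10 Mb 0.08. These are correlations across rows of 1 library pair, which are not replicates. With the running mean undone, r was 0.44 at 120 kb and 0.23 at 1 Mb.

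In the deposited state table, which its name ties to a hidden Markov model, each row has a label, AD or iAD, whose meaning is not given in the sources used here. AD was carried by 44.0% of autosomal rows. Of the high rows 95.9% carried it, of the rows between the thresholds 19.4% and of the low rows 0 of 10855. High runs of at least 5 rows held 19991 rows, and all of them carried AD, while none of the rows of the named low runs did. The labels were made from the same ratios, so this describes how the thresholds and the states overlap and supports neither.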

How the data were processed

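Lamin B1 ChIP and input DNA of VCaP were sequenced with 1 library each. The authors deposited the log2 enrichment of ChIP over input per 40 kb row, and a table with 1 state label per row. The submitters' processing notes name STAR and hg19. Scaling, filters and depth are not given in the sources used here. The deposited log2 ratios behave as averages of 3 successive entries, ending at the row itself, which would shift signal by about 40 kb. This was inferred from the values. Undoing such an average left a median absolute value of 0.0070 in the 160 rows wider than 40 kb. The averaging was undone as an alternative.

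An arm is the rows before or after the widest entry of a chromosome, with adjoining entries over 1 Mb left out and at least 50 rows. The noise is the median absolute deviation of the differences between rows 3 apart, times 1.4826, over the square root of 2. For the SD of a mean 3 rows count as 1 value, although rows further apart are still correlated. This SD holds the spread of nearby rows only and no error between libraries. Regions named were every chromosome, the 5 highest and lowest arms, the 5 longest runs, the 5 with the most extreme mean among runs of at least 10 rows with none over 400 kb wide, and the 3 arms with the largest and smallest difference at the end. Some further arms and pairs were named after their values were seen. The members, thresholds and lists were chosen with earlier results of these data known.

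Genes per chromosome, gene order and promoters came from RefSeq tables of GRCh38.p14, of which no coordinates were used. Genes with LOC symbols were left out of the order. Gene families and promoters of chromosome 8 were not analysed here. The code that finds runs and arm ends was checked on simulated data. Its planted runs had no noise and its arm ends had noise independent between rows. The check therefore does not bear on the precision of the runs or arm ends given here. The tools were matplotlib 3.10.9, scipy 1.17.1, numpy 2.4.6, pandas 2.3.3 and Python 3.11.15.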

Additional observations from a re-analysis of the deposited data

Results flagged for a closer look

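Chromosomes X and Y lie outside the autosomes described, and their medians were also above the authors' zero point, whose scaling is not known. For the autosomes the median was 0.19, with 36.3% over 0.35 and 16.1% under -0.25. The 3755 rows of chromosome X had a median log2 enrichment of 0.25, with 38.3% over 0.35 and 11.6% under -0.25. The 593 rows of chromosome Y had a median of 0.22, with 40.3% over 0.35 and 17.7% under -0.25.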

How the results depend on the processing

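Of 99 values under other settings, for 18 results, 79 stayed near the reported value and 20 moved, with 0 changes of sign. Near means within the spread of a row for levels, within 1.5 times for counts and shares and within 0.1 for correlations. For medians over many rows the spread of a row is a wide bound, so their values are given: the autosomal median was between 0.18 and 0.20, the highest minus the lowest chromosome between 0.65 and 0.69, and the median difference at telomeric arm ends between 0.31, with a window of 10 Mb, and 0.49, without 5 chromosomes. Centring on the autosomal median gave 22.5% high and 28.6% low rows, 618.2 Mb in high runs and 778.8 Mb in low runs. A minimum of 5 rows left 1424 high runs with a median of 400 kb and 706 low runs with 270.5 Mb and a median of 280 kb. A running median of 5 rows gave 1774 high runs (median 280 kb) and 1296 low runs (median 200 kb). Low runs held 255.8 Mb at a threshold of -0.4 and 700.3 Mb at -0.1. At the centromeric end, chosen after seeing the data, 20 arms (52.6%) were higher than their rest, with a median difference of 0.014. With the promoter G and C share in place of gene density, also chosen after seeing the data, rho was 0.40 and r was 0.56. Under the 6 other alternatives for arm ends, windows of 2 and 10 Mb included, the end was higher in 36 or 37 of 38 arms, or in 28 of the arms left without 5 chromosomes. Gene families were left out, as they need an annotation on hg19. No paired analysis was possible because the VCaP ChIP and its input are single libraries. For the same reason no library could be left out. With the read number unknown, the precision of single runs rests on the spread between rows.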
